A study of Mus musculus with 8 samples.

Results

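Annotated microRNA precursor rows that carried counts were examined in total RNA and in AGO2-bound RNA of mouse mesangial cells. A row was taken when its symbol named a microRNA gene, host gene rows were left aside, and the raw count summed over all 8 libraries was 20 or more. That left 27 of 1193 microRNA rows, in a list of 24639 gene rows. Because the rows were chosen by these same counts, their levels are a description. A row could reach 20 through either assay: 13 rows did so in total RNA alone, 10 in AGO2-IP alone and 4 only when the assays were added together. How far a row leaned toward the assay that admitted it was therefore partly fixed by the choice.

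Mouse mesangial cells (MMC), the contractile support cells of the kidney glomerulus, were cultured from wild-type (WT) mice and from miR-379 knockout (miR-379KO) mice, both on strain C57BL/6J (Jackson lab). The knockout was made in embryos with CRISPR-Cas9 nickase and a pair of guide RNAs, and it removes a short stretch at miR-379, so both genotypes keep the rest of that microRNA cluster. All cells were grown in RPMI medium with foetal bovine serum and received no treatment during growth. Before the AGO2 antibody step the study's methods describe UV cross-linking of the cells and sonication, which they do not describe for total RNA. Each genotype was profiled as total RNA and as RNA recovered with an Ago2 antibody (AGO2-IP), with replicates A and B in each of 4 groups. The study's animal groups were male mice, and the labels do not say which animals, of what age, gave these cultures. The study calls A and B independent samples, but nothing used here says whether they came from separate animals or cultures, so the p-values below measure the spread between these samples, which may be technical.

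A microRNA is transcribed as part of a longer RNA, often inside the intron of a host gene. Drosha with DGCR8 cuts out a hairpin, the precursor, and Dicer cuts the hairpin to a short duplex, one strand of which is loaded into an Argonaute protein such as AGO2. The seed at the 5′ end of the loaded strand pairs with target RNAs. Precursor rows in RNA-seq can also collect reads from other RNAs that share their position or their sequence, among them small nucleolar RNAs (snoRNAs, which guide chemical modification of ribosomal RNA), transfer RNAs and exons of ordinary genes.

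By position and sequence the 27 rows fell into 4 classes. In 4 rows (Mir1949, Mir6516, Mir1983 and Mir3068) the precursor shared an exact run of at least 20 bases with an annotated small RNA. Another 6 (Mir3064, Mir3113, Mir8112, Mir5133, Mirlet7e and Mir8091) overlapped an exon of another gene on the same strand. These 10 are called look-alike rows here. A further 5 (Mir6236, Mir6240, Mir703, Mir568 and Mir3061) had at least 5 other partial alignments in the genome. Classes were assigned in this order, and some look-alike rows also had such alignments, namely Mir3113 (255), Mir1983 (18) and Mir8112 (17). The remaining 12 had none of these features. Precursors were 56 to 139 bases long, with a median of 83.0, and the G+C content ranged from 31.2% to 82.9%.

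The mature sequences of the rows that led either assay are given first, with bases 2 to 8 (the seed) in capitals. They come from RefSeq on GRCm38.p6, which held a mature sequence for 24 of the 27 rows. The other 3, Mir143, Mir145a and Mir1949, are named only. The names miR-6236, miR-6240 and miR-703 belong to the rows that led total RNA, and miR-6516, miR-3068 and miR-1983 to rows that were high in AGO2-IP.
miR-6236: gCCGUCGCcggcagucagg
miR-6240: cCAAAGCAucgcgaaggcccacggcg
miR-703: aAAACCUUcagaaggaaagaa
miR-6516-5p: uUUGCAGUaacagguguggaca
miR-6516-3p: uCAUGUAUgauacugcaaacag
miR-3068-5p: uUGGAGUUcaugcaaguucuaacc
miR-3068-3p: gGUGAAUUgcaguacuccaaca
miR-1983: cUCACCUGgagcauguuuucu

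These 8 sequences had 8 different seeds. In all, 37 mature sequences belonged to the 24 rows, and GAGGUAG was the only seed held by more than 1 row. It is the let-7 seed, carried by let-7d-5p and let-7e-5p and by 11 mature names in the RefSeq table. They are shown with the main arms of other rows whose microRNAs are well known in mesenchymal cells, since these rows are compared between assays below.
let-7d-5p: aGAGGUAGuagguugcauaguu
let-7e-5p: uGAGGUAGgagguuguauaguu
miR-29a-3p: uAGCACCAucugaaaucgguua
miR-125b-5p: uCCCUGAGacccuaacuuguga
miR-186-5p: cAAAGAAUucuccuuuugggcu
miR-196a-5p: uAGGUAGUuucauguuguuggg

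The libraries held 17168230 to 22660743 gene counts in total RNA and 5587611 to 17095021 in AGO2-IP. The ribosomal RNA precursor row Rn45s took 4.52% to 9.26% of gene counts in total RNA and 72.2% to 80.5% in AGO2-IP, so the depth left for other rows was smaller in AGO2-IP. Summed markers of mesangial cells and pericytes stood at 16229 to 25007 counts per 1000000 gene counts (CPM) in total RNA, compared to 252 to 614 for podocyte markers, 5.42 to 41.8 for tubular markers, 1.75 to 5.35 for leukocyte markers and 0.0563 to 2.12 for endothelial markers. Mir379 itself, the targeted row, had 0 counts in all total RNA libraries, 0 (A) and 4 (B) in WT AGO2-IP, and 1 (A) and 0 (B) in AGO2-IP of miR-379KO, and so it neither met the minimum nor checked the labels.

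Counting used strand, with the reverse setting described for both assays, although adapter ligation as used for AGO2-IP reads RNA in its own direction. Rmrp and Rpph1, RNAs of the endonucleases RNase MRP and RNase P, had 14612 to 51444 and 11512 to 24349 counts in AGO2-IP in rows annotated on their own strand. Across 162 rows named as opposite-strand transcripts, the summed count was 4.07% to 5.63% of that of their 155 partner genes in total RNA, and 9.11%, 7.30%, 14.7% and 19.1% in the AGO2-IP libraries (WT A and B, then miR-379KO A and B). The strand of the reads in the precursor rows was not tested, and a value in AGO2-IP is given as the row's count only.

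The count of each row in each library is plotted by class. Values listed as 4 numbers are always given in the order WT A, WT B, miR-379KO A, miR-379KO B. Points of total RNA and of AGO2-IP were widely separated for the leading rows and mixed for many of the low ones. Only 6 rows had counts in all 8 libraries, namely Mir6516, Mir196a-1, Mir3064, Mir186, Mir5133 and Mir3113.

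**Figure D1:**
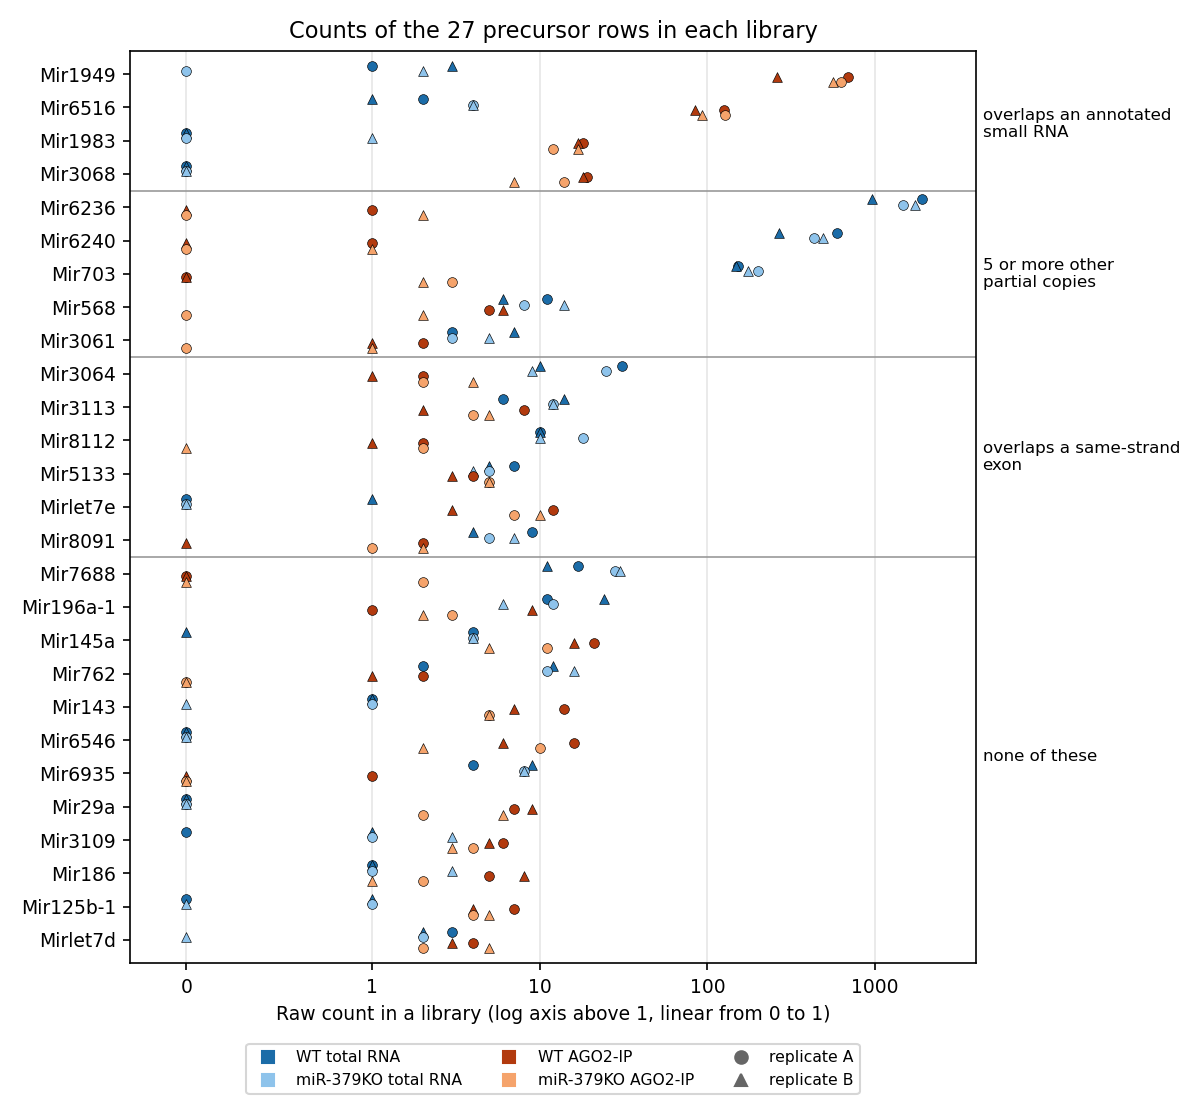
Raw count of each of the 27 precursor rows (vertical axis, grouped by class) in each library (horizontal axis, log above 1 and linear from 0 to 1). Each point is 1 library; Mir6236 reached 1912 in total RNA and at most 2 in AGO2-IP, whereas Mir1949 reached 694 in AGO2-IP and at most 3 in total RNA.

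Total RNA was dominated by 3 rows with partial copies elsewhere in the genome. Mir6236 (GRCm38.p6, chr9:110281287-110281409, plus strand, outside any exon) had 1912, 964, 1470 and 1745 counts. Mir6240 (chr5:114851948-114852064, plus strand, between genes) had 597, 269, 431 and 490 counts. Mir703 (chr5:98475556-98475664, minus strand) had 153, 149, 200 and 176. For each of the 3 rows the WT and miR-379KO counts were of similar size, with WT B lowest.

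The same 3 rows nearly vanished from AGO2-IP. Mir6236 had 1, 0, 0 and 2 counts there, Mir6240 had 1, 0, 0 and 1, and Mir703 had 0, 0, 3 and 2. Mir6236 took 66.4% ± 3.25 (SD, n = 2) of all precursor-row counts in WT total RNA, with 66.9% ± 2.21 for miR-379KO. Together with Mir6240 and Mir703 the share was 93.7% ± 2.66 and 94.0% ± 0.854, a difference between genotypes smaller than the spread of replicates.

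Mir6236 and Mir6240 kept a nearly constant ratio in total RNA, namely 3.20, 3.58, 3.41 and 3.56. Per 1000000 counts of Rn45s there were 1202, 1227, 1151 and 1396 counts of Mir6236 and 375, 342, 338 and 392 of Mir6240 in total RNA. In AGO2-IP, where Rn45s was far higher, Mir6236 had only 0.0726, 0, 0 and 0.485 counts on that scale. The 2 rows therefore kept step with Rn45s within total RNA and not across assays. What RNA their reads came from was not tested.

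Mir703 matched a protein gene. Its precursor aligned over all 109 bases at 98.2% identity to chr9:78478528-78478635, inside an exon of Eef1a1 on the same strand, the gene of a translation elongation factor. The 21 bases of miR-703 itself occurred exactly at 17 other sites on 12 chromosomes, including exons of 10 annotated genes. Per 1000000 Eef1a1 counts there were 1575, 907, 1126 and 1015 counts of Mir703 in total RNA, compared to 0, 0, 640 and 495 in AGO2-IP. The files list reads with more than 1 alignment apart from the gene rows, so reads shared between Mir703 and its copies may be missing from the row, and its value is uncertain. The other partial-copy rows were much lower. Mir568 had 11, 6, 8 and 14 counts in total RNA and 5, 6, 0 and 2 in AGO2-IP, and Mir3061 had 3, 7, 3 and 5 against 2, 1, 0 and 1.

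AGO2-IP was led by 2 rows that overlap annotated small RNAs. Mir1949, in an intron of the snoRNA host gene Snhg4 on chromosome 18, is itself annotated as a snoRNA by GENCODE and had 694, 259, 629 and 565 counts in AGO2-IP. In total RNA it had 1, 3, 0 and 2. Mir6516 (chr11:117077348-117077457, plus strand, in an intron of Snhg20) had 125, 84, 127 and 93 counts in AGO2-IP and 2, 1, 4 and 4 in total RNA. AGO2-IP and total RNA did not overlap for either row, and both rows had reached the minimum through AGO2-IP alone.

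Both arms of miR-6516 shown above lie within Gm26083 (chr11:117077243-117077435), which GENCODE annotates as a small Cajal body RNA, a relative of snoRNAs, and 88 of the 110 precursor bases are shared with it. For Mir1949 the shared run was 66 of 70 bases. Mir1949 took 63.4% ± 10.6 (SD, n = 2) of precursor-row counts in WT AGO2-IP, with 74.6% ± 1.0 for miR-379KO. Mir6516 took 15.5% ± 3.8 and 13.7% ± 1.78. The order of the leaders was the same in all 4 AGO2-IP libraries, and the Mir6516 shares of the genotypes overlapped.

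The introns that hold these rows were counted apart from the exons of their hosts. Per count of Snhg4 there were 40.8, 19.9, 62.9 and 35.3 counts of Mir1949 in AGO2-IP and 0.0147, 0.0375, 0 and 0.0290 in total RNA. Mir6516 had 13.9, 12, 18.1 and 15.5 counts per count of Snhg20 in AGO2-IP.

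Mir3068 and Mir1983 were lower rows of the same class. Mir3068 (chr12:87437679-87437757, minus strand, in an intron of Alkbh1) is annotated as a snoRNA by GENCODE, and both of its arms lie wholly within that annotation. It had 19, 18, 14 and 7 counts in AGO2-IP and 0 in every total RNA library. Mir1983 (chr13:21896918-21897049, minus strand) surrounds the isoleucine transfer RNA gene n-TItat14, with 94 of its 132 bases shared with 13 transfer RNA genes and 13 of the 21 mature bases in the transfer RNA. It had 18, 17, 12 and 17 counts in AGO2-IP and 0, 0, 0 and 1 in total RNA. All 4 rows of the class were higher in every AGO2-IP library than in any total RNA library. All 4 had reached the minimum through AGO2-IP alone, so this separation was partly fixed by the choice. The share of all gene rows separated in this way was not counted.

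Summed by class, the small RNA overlap rows held 84.5% ± 4.10 (SD, n = 2) of precursor-row counts in AGO2-IP of WT cells, with 91.4% ± 0.678 for miR-379KO. Their shares of total RNA were 0.187% ± 0.112 and 0.226% ± 0.0685. The partial-copy rows held 94.4% ± 2.40 and 94.6% ± 1.04 in WT and miR-379KO total RNA and 1.22% ± 0.419 and 0.710% ± 0.505 in AGO2-IP. The exon-overlapping rows held 2.27% to 2.97% in all 4 groups. The 12 rows with none of these features held 2.83% ± 1.82 and 2.91% ± 0.227 in total RNA, and 11.6% ± 4.32 (WT) and 4.91% ± 0.534 (miR-379KO) in AGO2-IP. Snord, Snora, Scarna and other structured RNA rows, a list of 123, had 53 of 55 tested rows called higher in AGO2-IP and 0 called lower in each genotype by edgeR's test, which is described below with the shares over all rows (35.7% higher and 7.33% lower in WT, 41.6% and 19.3% in miR-379KO).

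The make-up of the libraries is plotted as stacked shares. The 22 rows other than the 5 leaders had summed counts of only 120, 119, 145 and 132 in total RNA and 158, 120, 92 and 87 in AGO2-IP, which is the grey part of each bar.

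**Figure D2:**
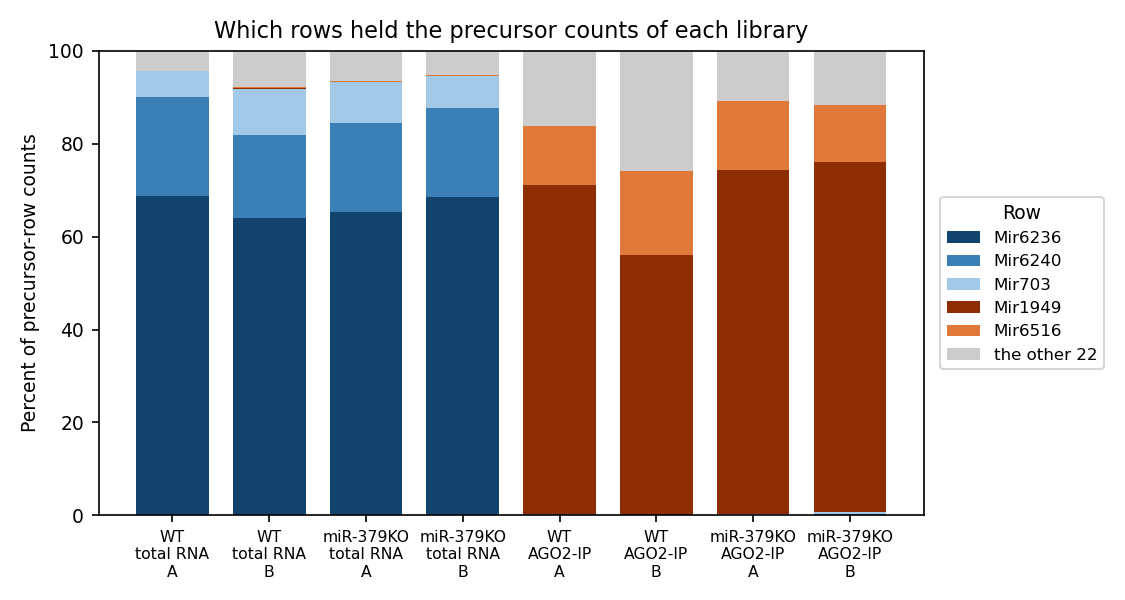
Share of precursor-row counts (percent, vertical axis from 0 to 100) held by 5 leading rows and the other 22 in each of the 8 libraries. Mir6236 filled 64.1% to 68.7% of the bar in total RNA, and Mir1949 filled 55.9% to 75.3% in AGO2-IP.

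The order changed little when counts were divided by precursor length. As CPM per kilobase of precursor, Mir6236 stood at 678 ± 322 (SD, n = 2) in WT and 663 ± 192 in miR-379KO total RNA, Mir6240 at 215 ± 117 and 199 ± 51.8, and Mir703 at 80.2 ± 2.25 and 86.0 ± 7.04. In AGO2-IP, Mir1949 stood at 483 ± 137 in WT and 1409 ± 50.7 in miR-379KO, and Mir6516 at 73.1 ± 9.32 and 164 ± 17.7. The next rows on this scale were Mir3064 in WT total RNA (17.8 ± 13.0), Mir7688 in miR-379KO total RNA (26.1 ± 5.73), Mir145a in WT AGO2-IP (20.7 ± 4.45) and Mir3068 in miR-379KO AGO2-IP (21.5 ± 7.93). In AGO2-IP those last values lay within the spread of neighbouring rows, since Mir3068 was at 18.9 ± 6.86 in WT.

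Of the rows, 8 belong to widely conserved microRNAs: let-7d, let-7e, miR-29a, miR-125b-1, miR-143, miR-145a, miR-186 and miR-196a-1. Together they had 20, 30, 21 and 13 counts in total RNA and 71, 59, 36 and 39 in AGO2-IP. All 8 had counts in every AGO2-IP library. As CPM the sums were 0.732 to 1.72 in total RNA and 4.15 to 6.98 in AGO2-IP, with no overlap between assays. Mirlet7e, Mir29a, Mir125b-1, Mir143 and Mir145a had reached the minimum through AGO2-IP alone, and Mir196a-1 through total RNA alone. The separation of the sums was therefore partly fixed by the choice.

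Mir143 and Mir145a lie together in an intron of Carmn on chromosome 18 and are known as microRNAs of smooth muscle and pericyte-like cells. Mir145a had 21, 16, 11 and 5 counts in AGO2-IP and 4, 0, 4 and 4 in total RNA. Mir143 had 14, 7, 5 and 5 against 1, 1, 1 and 0. Both were lower in the miR-379KO than in the WT AGO2-IP libraries in raw counts, where the gene counts were also lower. The host row Carmn had 216, 114, 92 and 70 counts in AGO2-IP.

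Mirlet7e had 12, 3, 7 and 10 counts in AGO2-IP and 0, 1, 0 and 0 in total RNA. Its precursor lies wholly in a predicted exon of Spaca6, whose row had 94, 48, 48 and 49 counts in AGO2-IP and 45, 22, 18 and 20 in total RNA. Mirlet7d, between genes on chromosome 13, had 4, 3, 2 and 5 counts in AGO2-IP and 3, 2, 2 and 0 in total RNA, so its assays overlapped in raw counts. The other let-7 rows did not reach the minimum, as described below.

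Mir29a, whose product targets collagen transcripts, had 7, 9, 2 and 6 counts in AGO2-IP and 0 in every total RNA library. Mir125b-1, in an intron of Mir100hg, had 7, 4, 4 and 5 against 0, 1, 1 and 0. The assays did not overlap for either row, and both rows had reached the minimum through AGO2-IP alone. Mir186, in an intron of Zranb2, had 5, 8, 2 and 1 counts in AGO2-IP and 1, 1, 1 and 3 in total RNA. Mir196a-1, in a Hox gene cluster and opposite an exon of Gm51876, had 11, 24, 12 and 6 counts in total RNA and 1, 9, 3 and 2 in AGO2-IP. It was the only one of the 8 with more raw counts in total RNA, at unequal depth, and its direction between assays depended on the scaling, as given below.

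The exon-overlapping rows other than Mirlet7e had similar or larger raw counts in total RNA, where the libraries were deeper outside Rn45s. Mir3064, of which 1 of 67 bases touches an exon of Ddx5 (an RNA helicase of the Drosha complex), had 31, 10, 25 and 9 counts in total RNA and 2, 1, 2 and 4 in AGO2-IP. Mir8112 lies with 125 of 131 bases in an exon of Krcc1 and had 10, 10, 18 and 10 against 2, 1, 2 and 0. In raw counts all total RNA libraries were above all AGO2-IP libraries for both rows, which had reached the minimum through total RNA alone.

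Mir8091, wholly in an exon of Lcor, had 9, 4, 5 and 7 counts in total RNA and 2, 0, 1 and 2 in AGO2-IP. Mir3113, wholly in a predicted exon of Huwe1, had 6, 14, 12 and 12 against 8, 2, 4 and 5, and Mir5133, wholly in an exon of Glce, had 7, 5, 5 and 4 against 4, 3, 5 and 5. The last 2 overlapped between assays in raw counts, and with TMM scaling both were called higher in AGO2-IP, as given below. Where a read touched both the precursor and the other gene, the default of the counter would set it aside as ambiguous, and the mode used is not given in the sources used here.

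Among the rows with no feature of these kinds, Mir7688 was a row of total RNA, with 17, 11, 28 and 30 counts there and 0, 0, 2 and 0 in AGO2-IP. Mir6546 (chr1:171064591-171064652, minus strand, 46 bases from the glycine transfer RNA gene n-TGtcc1) was a row of AGO2-IP, with 16, 6, 10 and 2 counts against 0 in every total RNA library. Its precursor had 2 other alignments, fewer than the 5 that define the partial-copy class. The best covered all 62 bases at 96.8% identity. Reads shared with these sites may be missing from the row, as for Mir703. With Mir3068 and Mir29a, Mir6546 made up the 3 rows at 0 in all of total RNA. A count of 0 allows up to 0.132 to 0.175 CPM in a library (3 counts). No row was at 0 in all of AGO2-IP.

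The last 3 rows were low throughout. Mir762 had 2, 12, 11 and 16 counts in total RNA and 2, 1, 0 and 0 in AGO2-IP. Mir6935, which abuts an exon of Actg1 (cytoplasmic actin), had 4, 9, 8 and 8 against 1, 0, 0 and 0. Mir3109, in an intron of Anxa2, had 0, 1, 1 and 3 against 6, 5, 4 and 3.

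To compare the assays within a genotype, all gene rows were tested with edgeR's quasi-likelihood test on the 8 libraries, and a row was called at a Benjamini-Hochberg adjusted p under 0.05 with a log2 fold change of at least 1. Of the 27 rows 20 passed the filter on low counts. In WT, 13 were called higher in AGO2-IP, where 35.7% of all tested rows were called higher, and 3 were called lower, where 7.33% of all rows were. In miR-379KO, 12 were called higher (41.6% of all rows) and 3 lower (19.3% of all rows). Because selection favoured rows high in 1 assay, nothing is read from these counts about the rows as a group. Library type also went with assay throughout, since total RNA was prepared with poly(A) chemistry and AGO2-IP RNA by adapter ligation. A fold between assays therefore mixes library type with recovery by the antibody. How much of any fold below came from library type was not tested.

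The 3 rows called lower were Mir6236, Mir6240 and Mir703 in both genotypes. Mir6236 was 2220-fold lower in WT AGO2-IP than in WT total RNA per gene count (95% counting interval 398 to 87719) and 483-fold lower in miR-379KO (133 to 3986). These folds rest on 1 and 2 AGO2-IP counts, and with the TMM scaling of the test they were 275 and 136. The adjusted p-values in edgeR's test were 4.54e-06 and 1.18e-06. Mir6240 was 668-fold (120 to 26434) and 276-fold (49.5 to 10932) lower per gene count, or 82.9-fold and 77.8-fold with TMM scaling, on 1 AGO2-IP count in each genotype, at adjusted p-values of 2.21e-05 and 4.28e-06 in edgeR. Mir703 was at least 77.7-fold lower in WT, where it had no AGO2-IP count against a floor of 3 counts over the group, and 22.6-fold lower in miR-379KO (9.59 to 69.9), all per gene count. With TMM scaling these values were at least 9.63-fold and 6.35-fold.

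Mir1949 and Mir6516 had the firmest calls in the other direction. Mir1949 was 309-fold higher in AGO2-IP in WT (95% counting interval 120 to 1135) and 1989-fold higher in miR-379KO (549 to 16440) per gene count, and 2490-fold and 7070-fold higher with TMM scaling, with adjusted p-values in edgeR of 9.30e-09 and 2.89e-09. For Mir6516 the folds were 90.2 (30.5 to 441) and 91.6 (45.7 to 215) per gene count and 728 and 326 with TMM scaling, with adjusted p-values in edgeR of 1.40e-10 and 7.85e-11. Counting intervals cover counting error only and treat reads as independent molecules. Neither they nor the p-values allow for the difference in library type between assays.

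The other rows called higher in both genotypes were Mir3068, Mir1983, Mir6546, Mir29a, Mirlet7e, Mir143, Mir145a, Mir125b-1, Mir5133 and Mir3113. Mir3068 was at least 16.0-fold higher in WT and at least 23.3-fold in miR-379KO, Mir6546 at least 9.50-fold and 13.3-fold, and Mir29a at least 6.91-fold and 8.88-fold, all per gene count against the floor of 3 counts over the group. With TMM scaling the bounds were 129 and 82.9 for Mir3068, 76.6 and 47.4 for Mir6546, and 55.7 and 31.6 for Mir29a. Mir145a had folds of 12 (4.30 to 46.3) and 6.66 (2.69 to 18.0) per gene count and 96.7 and 23.7 with TMM scaling. Mir568 was called higher in WT, with a log2 fold change of 2.74 ± 0.77 (SE, edgeR adjusted p = 0.00702), and its value in miR-379KO was 0.07 ± 1.17 (edgeR adjusted p = 0.962). The difference between the genotypes, tested below, was not called (-2.67 ± 1.30, SE, edgeR adjusted p = 0.330). The WT calls of Mir568, Mir5133 and Mir3113 were lost with DESeq2 and without WT AGO2-IP replicate A. That of Mir3113 in miR-379KO was lost with DESeq2 and with gene count totals. Some calls of these rows were also lost when another single library was left out, in WT and in miR-379KO.

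These calls rest in part on the scaling. TMM factors, which equalise the bulk of rows, were 2.2 to 2.46 in total RNA and 0.251 to 0.656 in AGO2-IP, and they put the median log2 fold change of all rows at 0.49 in WT and 0.47 in miR-379KO. With gene count totals alone these medians were -2.45 and -1.34, and 10 of the 13 WT calls and 11 of the 12 miR-379KO calls higher in AGO2-IP held. On these totals 18.9% of all WT rows were called higher in AGO2-IP and 65.6% of them lower. For miR-379KO the shares of all rows were 31.2% (higher) and 53.3% (lower). Mir568, Mir5133 and Mir3113 changed sign in WT, as did the uncalled Mir196a-1 and Mir762. In miR-379KO the uncalled Mir196a-1, Mir3064 and Mir568 changed sign. Mir6236, Mir6240 and Mir703 were called lower, and the 4 small RNA overlap rows higher, under both scalings.

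The shift between scalings is plotted for each tested row. Every square lies to the left of its circle, and the rows with conserved microRNAs from Mir29a to Mir125b-1 stayed to the right of 0.

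**Figure D3:**
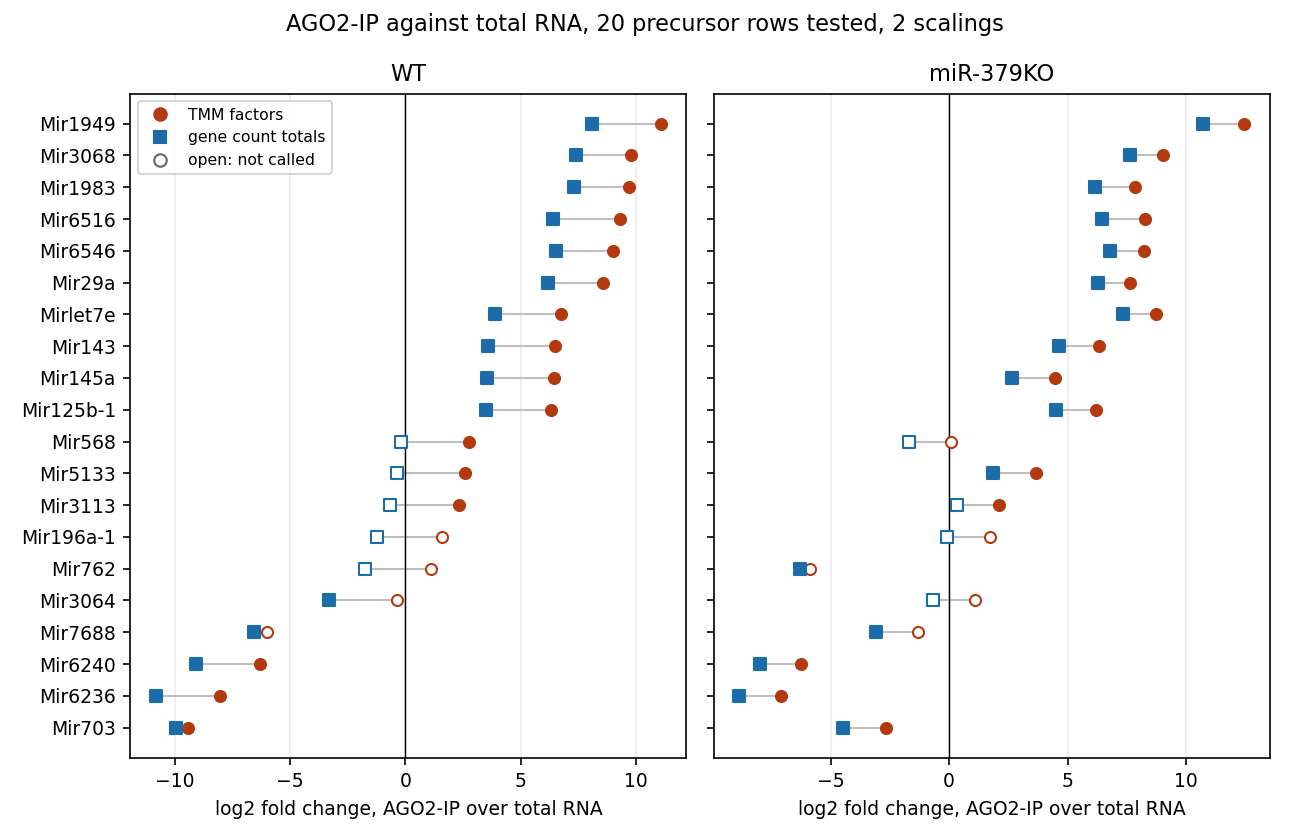
Log2 fold change of AGO2-IP over total RNA (horizontal axis) for the 20 tested rows in WT and miR-379KO, with TMM factors (circles) and gene count totals (squares); filled symbols were called. Fitted values of rows with a group at 0 depend on the prior count. In WT, Mir568, Mir5133, Mir3113, Mir196a-1 and Mir762 crossed 0 with the scaling, and in miR-379KO Mir568, Mir196a-1 and Mir3064 did.

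To ask whether precursor rows differed between genotypes in AGO2-IP, miR-379KO was compared to WT on the 4 AGO2-IP libraries. Only 5 of the 27 rows passed the filter on low counts, and 0 were called at an adjusted p under 0.05 in edgeR, where 30.9% of all 13505 tested rows were called. At an unadjusted p under 0.05 there was 1 row, Mir145a, against 42.5% of all rows, and DESeq2 called 0, against 6.21% of all rows. The median log2 fold change was -0.06 over the 5 rows and -0.01 over all rows.

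Mir1949 was higher in miR-379KO by 0.57 ± 0.31 on the log2 scale (SE, edgeR adjusted p = 0.172) and Mir6516 by 0.28 ± 0.23 (edgeR adjusted p = 0.364). Mir145a was at -1.0 ± 0.47 (edgeR adjusted p = 0.107), Mir3068 at -0.61 ± 0.44 (edgeR adjusted p = 0.301) and Mir1983 at -0.06 ± 0.41 (edgeR adjusted p = 0.921). None passed the threshold with TMM factors. With gene count totals as library sizes, Mir1949 (1.55, edgeR adjusted p = 0.00544) and Mir6516 (1.18, edgeR adjusted p = 0.0272) were called higher, as were 39.9% of all rows, whose median moved to 0.87. Mir3068 and Mir1983 changed sign under that scaling. With Rn45s and Lars2 taken out of the totals both Mir1949 (0.89) and Mir6516 (0.60) were also called, each at an edgeR adjusted p of 0.0482, as were 30.1% of all rows, and Mir1983 changed sign.

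Leaving out WT AGO2-IP replicate A also brought Mir1949 past the threshold, at 1.22 (edgeR adjusted p = 0.00966). That library had 694 counts of Mir1949 and replicate B had 259. Within a library Mir1949 had 5.55, 3.08, 4.95 and 6.08 counts per count of Mir6516, and the genotypes overlapped on this measure, which needs no scaling.

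In total RNA, 10 of the 27 rows were tested between genotypes, and 0 were called in edgeR, where 0% of all 12321 tested rows were called. No member reached an unadjusted p under 0.05, against 0.739% of all rows, and DESeq2 called 0. The median log2 fold change was 0.12 over the 10 rows and -0.01 over all rows. Mir6236 was at -0.00 ± 0.41 (SE), Mir6240 at -0.08 ± 0.45 and Mir703 at 0.14 ± 0.27. The smallest p-values belonged to Mir196a-1, at -1.15 ± 0.65 (edgeR unadjusted p = 0.128), and Mir7688, at 0.88 ± 0.56 (edgeR unadjusted p = 0.167).

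For Mir7688 the miR-379KO counts of 28 and 30 lay above the WT counts of 17 and 11, whereas the Mir196a-1 counts of 12 and 6 overlapped 11 and 24. Next were Mir762, at 0.83 ± 0.89, and Mir3064, at -0.54 ± 0.76. The direction of Mir3064 turned to 0.58 without WT total RNA replicate A. The adjusted p in edgeR was 1.0 for all 10 rows.

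**Figure D4:**
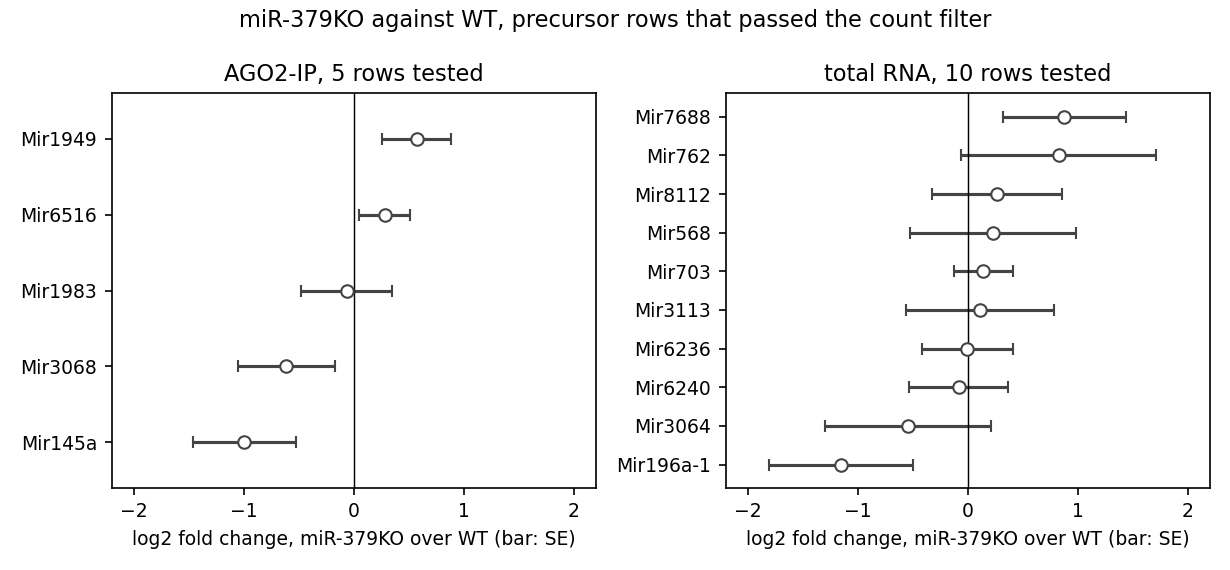
Log2 fold change of miR-379KO over WT (horizontal axis, TMM factors) with its standard error (bar) for the 5 rows tested in AGO2-IP and the 10 tested in total RNA. No row was called; Mir145a at -1.0 and Mir1949 at 0.57 were the ends of the AGO2-IP panel, and Mir1949 and Mir6516 were called with gene count totals, where Mir3068 and Mir1983 crossed 0.

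The plot of the genotype comparisons shows estimates on both sides of 0 in each assay. The difference between the AGO2-IP change and the total RNA change was tested across all 8 libraries with edgeR's quasi-likelihood test. Of 20 rows tested 0 were called, where 0% of all rows were called. At an unadjusted p under 0.05 there was 1 row, Mir703, against 15.7% of all rows, with a log2 difference of 6.76 ± 2.2 (SE, edgeR adjusted p = 0.255). Next by p among higher differences were Mir7688 (4.71 ± 3.67, SE) and Mirlet7e (1.99 ± 1.63). Among lower ones they were Mir568 (-2.67 ± 1.30), Mir762 (-7.00 ± 3.44) and Mir145a (-1.98 ± 1.19). None of these passed (edgeR adjusted p of 0.330 to 0.581). DESeq2 called 0 of the 20 rows and 0.689% of all rows.

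That value for Mir703 rests on AGO2-IP counts of 0, 0, 3 and 2, and its size depends on the prior count. With gene count totals it was 5.48 and passed (edgeR adjusted p = 0.0172), as did 12.3% of all rows in that direction.

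As a share of all gene counts, the 27 rows stood at 162 (95% Wilson interval 156 to 168) and 86.5 (82.3 to 91.0) CPM in WT total RNA, with 99.3 (95.3 to 103) and 144 (138 to 149) for miR-379KO. In AGO2-IP they stood at 57.3 (53.8 to 61.0) and 48.3 (44.1 to 52.9) in WT and 130 (122 to 139) and 134 (125 to 144) in miR-379KO. The genotypes overlapped in total RNA (exact two-sided permutation p = 1.0) and did not in AGO2-IP (exact two-sided permutation p = 0.333), where 2 against 2 libraries cannot give a p below 0.333. Per 1000000 gene counts other than Rn45s and Lars2 the means in AGO2-IP were 405 ± 165 (SD, n = 2) for WT and 661 ± 15.3 for miR-379KO. Summed endothelial markers moved with this share, at 2.46, 2.09, 8.71 and 11.5 CPM in AGO2-IP, as did leukocyte markers, at 2.16, 3.23, 11.2 and 17.4, and tubular markers, at 3.8, 6.88, 23.2 and 30.8. Mesangial and pericyte markers (824, 1596, 1427 and 1093 CPM) and podocyte markers (41.9, 21.9, 73.9 and 41.5) overlapped between genotypes in AGO2-IP. In total RNA the genotypes overlapped for endothelial (0.524, 0.402, 2.12 and 0.0563) and leukocyte markers (1.75, 5.35, 4.94 and 1.75). Tubular markers overlapped there too (5.42, 33.8, 16.5 and 41.8). Scaled by gene count totals, 39.9% of all rows were called higher in miR-379KO AGO2-IP. The part of these markers in the result was not tested.

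Most microRNA rows lay below the minimum. Of the 1193 rows 448 had no count at all, 479 had a summed count of 1 to 3 and 239 had 4 to 19. Just inside the minimum were Mirlet7d with 21 and Mir3061, Mir186 and Mir125b-1 with 22 each. Just outside were Mir669m-1 and Mirlet7i with 18, Mir1898 with 17, and Mirlet7a-2, Mir23a and Mir7-1 with 16.

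The 718 rows with counts below the minimum had 54, 48, 54 and 40 rows with a count in the total RNA libraries and 311, 224, 385 and 437 in AGO2-IP. Their summed counts were 69, 61, 78 and 53 in total RNA and 513, 340, 647 and 710 in AGO2-IP. No such row exceeded 11 counts in any library. AGO2-IP also had more reads outside genes, with 9472264 to 18126862 compared to 1201343 to 1668234 in total RNA. Per 1000000 reads outside genes the low rows had 41.4, 50.8, 47.7 and 40.7 counts in total RNA and 34.4, 35.9, 35.7 and 39.2 in AGO2-IP. On that scale the low rows were not higher in AGO2-IP.

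**Figure D5:**
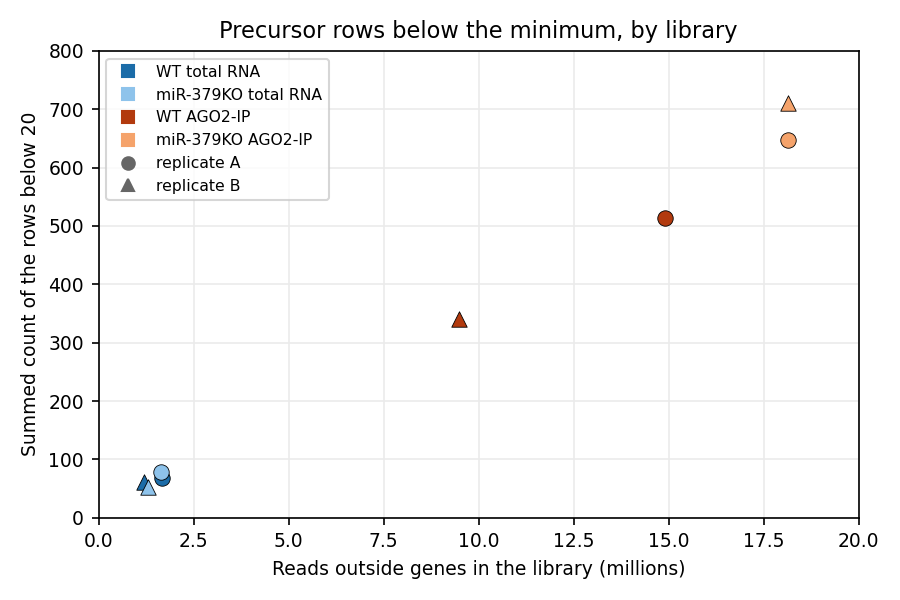
Summed count of the 718 rows below the minimum (vertical axis) against reads outside genes in the same library (horizontal axis, in units of 1000000 reads), 1 point per library. The sum ranged from 53 to 78 in total RNA and from 340 to 710 in AGO2-IP, and the AGO2-IP libraries had both more reads outside genes and larger sums. Within AGO2-IP the order held except between the miR-379KO libraries, whose reads outside genes were nearly equal (18126862 in A and 18125645 in B). Within total RNA it did not hold. Library, depth and assay are shared by both axes.

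The precursors of the miR-379 locus on chromosome 12 were all among the low rows. Of 39 rows 36 had counts and 0 met the minimum, with sums over the locus of 3, 2, 0 and 3 in total RNA and 62, 36, 30 and 38 in AGO2-IP. No single locus row was tested. Neighbouring transcripts of the imprinted region had more counts. Mirg (chr12:109734981-109749458) spans part of the locus, while Meg3, Rian and Dlk1 end before Mir379 and hold none of these precursors. In AGO2-IP, Meg3 (-0.84, edgeR adjusted p = 0.0156), Rian (-0.87, edgeR adjusted p = 0.00845) and Mirg (-0.95, edgeR adjusted p = 0.0460) were called lower in miR-379KO and Dlk1 was called higher (1.11, edgeR adjusted p = 0.0456), which is 4 of 4 rows tested where 30.9% of all rows were called. These calls were made with TMM factors. As CPM in AGO2-IP the genotypes overlapped for Meg3, Rian and Mirg and did not for Dlk1. The lower calls therefore rest on the scaling. In total RNA 0 of 4 were called, and 0% of all rows.

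In the let-7 family 10 of 12 rows had counts and 2 met the minimum. In the miR-17 family clusters, which are tied to cell growth, 7 of 15 had counts and 0 met it. Among 63 rows of microRNAs known from kidney and mesangial work 42 had counts and 4 met it, namely Mir125b-1, Mir143, Mir145a and Mir29a. All 4 had reached the minimum through AGO2-IP alone, so that their being called higher there in both genotypes, where 35.7% of all rows in WT and 41.6% in miR-379KO were, was partly fixed by the choice. Only Mir145a could be tested between genotypes.

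Genes of microRNA processing and action were read alongside. Of the 22 on the list, 21 were tested in AGO2-IP between genotypes, of which 2 were called higher in miR-379KO (Ago4, an Argonaute, 1.23, edgeR adjusted p = 0.0279, and Lin28b, which binds let-7 precursors, 1.49, edgeR adjusted p = 0.0143). Ddx17, a helicase of the Drosha complex, was called lower (-0.90, edgeR adjusted p = 0.0117). These 3 of 21 compare to 30.9% of all rows called. As CPM in AGO2-IP the genotypes overlapped for Ddx17 (45.5, 80.5, 66.6 and 52.3) and did not for Ago4 and Lin28b. In total RNA 0 of 20 were called, and 0% of all rows. Ago2, the protein recovered by the antibody, was at -0.58 in AGO2-IP (edgeR adjusted p = 0.0709), and its transcript was read at 3197, 2285, 2668 and 2472 counts in total RNA.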

How the data were processed

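The values were gene counts, deposited by the authors as whole reads per RefSeq gene without normalization, 1 list per library. Per the submitters' processing notes and the study's methods, reads were aligned to mm10 with TopHat and counted with HTSeq 0.6.0 in the reverse strand setting, and poor alignments were filtered. The notes also name Bowtie2 2.1.0.1. A stranded poly(A) mRNA kit was used for total RNA, and AGO2-IP libraries were made by adapter ligation as for small RNA but without size selection, so neither was a small RNA library of microRNA size. Reads with several alignments are listed apart from the genes. Values per 1000000 gene counts are written CPM.

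All gene rows were tested in edgeR 4.0.16 (R 4.3.3, limma 3.58.1) with TMM factors, filterByExpr with a minimum count of 10, and the quasi-likelihood F test with Benjamini-Hochberg adjustment. The genotypes were compared within an assay on 4 libraries, and the assays on all 8. The test was checked on simulated counts. These were drawn for all libraries from a shared mean profile with some rows changed, so they could not check the scaling between assays. Alternatives included DESeq2 1.42.0, other scalings and the omission of each library. Precursors were located on GRCm38.p6 and aligned with blastn (expect value 0.001). Replicates were compared by chi-square over the precursor rows and differed beyond counting error in 3 of the 4 groups (miR-379KO AGO2-IP, p = 0.216). Over all rows they differed in every group, so they were kept apart in the tests. Folds between assays, per gene count or with TMM scaling, used counts summed over the replicates of a group. Their counting intervals therefore leave out the spread between replicates and are too narrow where replicates differed.

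Rows named were the 10 highest of each group by count and by count per kilobase, the rows called, where none was called the 3 with the smallest p in each direction, those at 0 throughout an assay, those at the minimum, and listed families and pathways. The other rows were named after their values were seen. The members and lists were chosen with earlier results of these data known. No columns of other samples were present.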

Additional observations from a re-analysis of the deposited data

How the results depend on the processing

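For miR-379KO against WT in AGO2-IP, where 0 precursor rows were called, 1 was called with no filter on low counts (Mir145a), 2 with gene count totals, 2 with totals without Rn45s and Lars2, and 0 to 1 when a library was left out, the 1 being Mir1949 without WT AGO2-IP replicate A. In total RNA 0 were called in every alternative. For AGO2-IP against total RNA in WT, 10 of the 14 rows with a summed count of 50 or more were called. Of the 17 rows that are not look-alikes 9 were called. Of all 17429 tested rows 7507 were called in WT and 10627 in miR-379KO. In miR-379KO, 9 and 8 of these rows were called. With the 4 libraries of the genotype alone 9 precursor rows were called, since fewer rows passed the filter. For the difference between the changes, 1 was called with gene count totals and 0 to 0 without a library.

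The share of gene counts fell to 41.0 CPM in WT and 39.8 in miR-379KO total RNA without Mir6236. In AGO2-IP it was 6.63 in WT and 7.42 in miR-379KO without look-alike rows, and 405 and 661 with Rn45s and Lars2 out of the total. By library it spanned 86.5 to 162 in WT total RNA, 99.3 to 144 in miR-379KO total RNA, 48.3 to 57.3 in WT AGO2-IP and 130 to 134 in miR-379KO AGO2-IP.

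Of 613 values of named rows under alternatives, 568 kept direction and call, 7 passed the threshold only in the alternative, 14 lost their call (all of Mir568, Mir5133 or Mir3113) and 24 changed direction. Of these 24, 3 were called rows: in WT between assays Mir568 turned to -0.19, Mir5133 to -0.38 and Mir3113 to -0.66 with gene count totals. The others were uncalled. In miR-379KO between assays Mir568 turned to -1.69 with gene count totals and -0.0446 with no filter, and ranged from -5.76 to 1.09 over libraries left out. Between genotypes in AGO2-IP, Mir3068 turned to 0.26 with gene count totals, and Mir1983 to 0.83 with these, 0.26 without Rn45s and Lars2, and 0.15 without miR-379KO AGO2-IP replicate A, in a range of -0.41 to 0.15 over libraries left out. In total RNA, Mir3064 turned to 0.58 and Mir6240 to 0.69 without WT replicate A, and Mir6240 to 0.22 without miR-379KO replicate A, 0.0132 with the replicate block, 0.0147 with all 8 libraries and 0.0171 with the crossed block. Over libraries left out these rows ranged from -1.17 to 0.58 and from -0.59 to 0.69. Mir6236, at about 0 in total RNA, turned to 0.00457 with no filter, 0.0592 with the replicate block, 0.0895 with all 8 libraries and 0.0607 with the crossed block, and ranged from -0.46 to 0.66 over libraries left out. The difference for Mir7688 turned to -0.88 without miR-379KO AGO2-IP replicate A and reached 5.87 without replicate B. A group left with 1 library was assumed to vary like the others. The cause was not tested.

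The letters A and B do not state a pairing, and same-letter libraries correlated across rows at -0.207 between genotypes in total RNA and -0.028 in AGO2-IP, and at 0.165 in WT and 0.035 in miR-379KO between assays. With the letter as a replicate block, 0 precursor rows were called between genotypes in either assay, 16 in WT and 15 in miR-379KO between assays, and 0 for the difference. Without the block, 7507 (WT) and 10627 (miR-379KO) of all 17429 rows were called between assays. The crossed pairing in total RNA called 0 precursor rows and 1 of all rows. The scalings by totals and the crossed pairing were added after seeing the data.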
